A study of Aloe vera with 7 samples.

Results

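The genes described here are 5 nuclear genes of photosynthetic carbon metabolism, 3 of the Calvin cycle and 2 of photorespiration, measured in leaf and root RNA of Aloe vera. They were chosen as the probe sets that carry a single gene in the platform's probe table and whose gene symbol is PRK, RCA, SBPASE, HPR or AT1G80380. Each symbol had 1 probe set, which gave 5 of the 11100 single-gene probe sets and of the 18810 probe sets tested. The rule itself uses names only, but the genes were picked with earlier results of these data known. PRK (probe set 255720_at) encodes phosphoribulokinase, RCA (245061_at) rubisco activase and SBPASE (251762_at) sedoheptulose bisphosphatase. HPR (260014_at) encodes the peroxisomal hydroxypyruvate reductase and AT1G80380 (260284_at) glycerate kinase.

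The RNA came from a mature Aloe plant bought at a garden centre and kept in the laboratory at room temperature, and was hybridised to Affymetrix ATH1 arrays made for another species, Arabidopsis thaliana. The groups are 3 arrays of leaf RNA and 3 of root RNA, with 250 ng of total RNA labelled for each, and a seventh array of genomic DNA for which the table held 0 values. The labels describe 1 untreated plant, name no strain and give no hour of harvest. Nothing in them ties a replicate to a plant of its own, so the p-values rest on the spread among these arrays, which may be technical. A value thus tells how strongly Aloe RNA hybridised to probes built on an Arabidopsis gene. Fewer cells that express a gene and less of its RNA per cell cannot be told apart in these whole-tissue samples.

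In the Calvin cycle, rubisco fixes carbon dioxide onto ribulose bisphosphate, and the remaining enzymes reduce the product to sugar phosphates and regenerate the acceptor. Rubisco also fixes oxygen, and photorespiration recovers the carbon of the resulting phosphoglycolate by a route through chloroplast, peroxisome and mitochondrion that ends when glycerate returns to the chloroplast. Aloe uses crassulacean acid metabolism, in which carbon dioxide is stored as malate at night and released to rubisco by day behind closed stomata. In Arabidopsis these genes belong to green tissue.

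Every value below is a log2 difference from the median of that probe set over the 6 RNA arrays, so 0 marks the midpoint of the 6 arrays and not an absence of signal. The table gives no signal levels, and levels of different genes cannot be ranked. A tissue difference is leaf minus root, so that a positive value is on the leaf side. It was tested with limma over all 18810 probe sets, and a call is an adjusted p (Benjamini-Hochberg) below 0.05.

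The arrays were alike in their centre, with medians between -0.014 and 0.017 log2. Leaf replicate 2 stood apart at the array's control for large-subunit ribosomal RNA of the cytosol, with -4.72 log2 against -0.90 to 1.08 log2 on the other 5 arrays. Of the plastid-encoded photosystem genes listed as leaf markers, 16 of 20 were matched, 15 of these had a higher mean in leaf, and 5 were called higher in leaf (psbB, psbC, psbH, psbK and psbZ). Of these, psbH and psbZ were called under all 12 alternatives tried; the count was 4 with replicate as a blocking factor, where psbB was lost, and 2 to 7 with 1 array left out. The mean of the 16 matched plastid genes ranged from 0.44 to 1.46 log2 over the leaf arrays and from -1.08 to -0.58 log2 over the root arrays. Its lowest leaf value was in replicate 2. Of the nuclear light-harvesting genes only 2 of 14 were matched, and their mean ranged from 0.018 to 0.45 log2 in leaf and from -0.41 to -0.072 log2 in root. Of the root markers 2 of 17 were matched, EXPA7 and EXPA18 of root hairs. Both stood near 0, with tissue differences of -0.084 and -0.082 log2, so no matched root marker separated the tissues.

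The comparison of leaf with root asked whether RNA binding the probes of carbon fixation and photorespiration genes was unequal in the green and the non-green organ. PRK and RCA stood on the leaf side, by 1.25 and 0.70 log2. SBPASE and HPR stood on the root side, at -0.29 and -0.51 log2, and AT1G80380 was near 0 at 0.084 log2. In limma 0 of the 5 genes were called, against 0.34% of all probe sets in either direction, 0.276% on the leaf side and 0.0638% on the root side. At an unadjusted p under 0.05 there were 2, PRK and RCA, both on the leaf side. This count was 0 without leaf replicate 3 or root replicate 1 and with eBayes trend and robust fitting, and 1, PRK, without leaf replicate 2 or root replicate 2. All probe sets passed that mark in 9.56% of cases, 4.88% on the leaf side and 4.68% on the root side. The median of the 5 differences was 0.084 log2, and the median of all 18810 was -0.034 log2. Leaf had the higher mean in 3 of the 5 genes and in 45.5% of all probe sets.

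**Figure D1:**
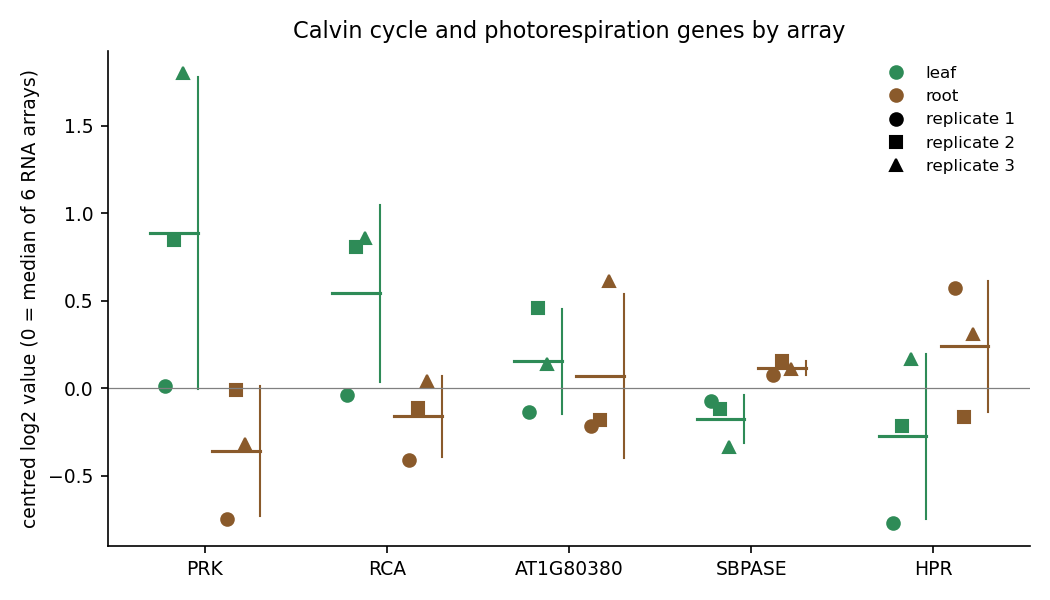
Centred log2 value (vertical axis) of each gene on the 3 leaf arrays (green) and the 3 root arrays (brown), with the marker shape giving the replicate number, a horizontal line the mean and a vertical line 1 SD to each side. PRK and SBPASE are the genes whose tissues do not overlap, in opposite directions, and the PRK gap is 0.024 log2 against a leaf range of 1.79 log2.

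Phosphoribulokinase makes ribulose bisphosphate, the acceptor of rubisco, a step specific to the Calvin cycle. PRK stood at 0.012, 0.85 and 1.80 log2 in leaf replicates 1, 2 and 3, and at -0.75, -0.012 and -0.32 log2 in root replicates 1, 2 and 3. All leaf values were above all root values, but the lowest leaf and the highest root value lay 0.024 log2 apart, while the leaf values spread over 1.79 log2. Groups without overlap on the leaf side occurred in 6.87% of all probe sets. The means were 0.89 ± 0.89 log2 in leaf and -0.36 ± 0.37 log2 in root (SD, n = 3 arrays each). The difference of 1.25 ± 0.44 log2 (SE), or 2.38-fold, had a 95% interval from 1.17-fold to 4.81-fold, an unadjusted p of 0.0222 and, in limma, an adjusted p of 0.408. PRK lay above 98.7% of all probe sets in its difference, and its residual SD of 0.68 log2 was above that of 91.8% of them.

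Rubisco activase uses ATP to free rubisco of bound sugar phosphates that block it. RCA stood at -0.041, 0.81 and 0.86 log2 in leaf replicates 1, 2 and 3 and at -0.41, -0.11 and 0.041 log2 in the root replicates. Leaf replicate 1 lay below root replicate 3, so the tissues overlapped, and the other 2 leaf arrays lay above all root arrays. The means were 0.54 ± 0.51 log2 in leaf and -0.16 ± 0.23 log2 in root (SD, n = 3 arrays each). The difference of 0.70 ± 0.29 log2 (SE) was 1.63-fold, with a 95% interval from 1.02-fold to 2.60-fold, an unadjusted p of 0.0429 and, in limma, an adjusted p of 0.493. It lay above 95.2% of all probe sets.

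Leaf was above root in each of the 3 replicate pairs for PRK, by 0.76, 0.86 and 2.12 log2, and for RCA, by 0.37, 0.92 and 0.82 log2. This held in 14.8% of all probe sets. With replicate as a blocking factor, the adjusted p in limma was 0.197 for PRK and 0.278 for RCA, still above the threshold. Both genes had their lowest leaf value in leaf replicate 1, and without that array their differences were 1.69 and 0.99 log2, with adjusted p-values of 0.239 and 0.300 in limma. Without leaf replicate 3, they were 0.79 and 0.54 log2. Without leaf replicate 2, the array that stood apart in ribosomal RNA, they were 1.27 and 0.57 log2.

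Sedoheptulose bisphosphatase removes a phosphate from sedoheptulose bisphosphate and commits carbon to regeneration of the acceptor. SBPASE stood at -0.076, -0.12 and -0.34 log2 in leaf replicates 1, 2 and 3 and at 0.076, 0.16 and 0.11 log2 in the root replicates. All root values were above all leaf values, with a gap of 0.15 log2, which was larger than the root range of 0.080 log2 and smaller than the leaf range of 0.26 log2. Groups without overlap on the root side occurred in 8.27% of all probe sets, and root was above leaf in all 3 replicate pairs in 19.5% of them, SBPASE included. The means were -0.18 ± 0.14 log2 in leaf and 0.11 ± 0.040 log2 in root (SD, n = 3 arrays each).

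The SBPASE difference of -0.29 ± 0.19 log2 (SE) had a 95% interval from -0.73 to 0.15 log2, an unadjusted p of 0.162 and, in limma, an adjusted p of 0.720. Its residual SD of 0.10 log2 was larger than that of only 3.41% of all probe sets. limma draws such a small spread towards that of the other probe sets, and the SE before this step was 0.084 log2. An exact permutation test of the 6 values, two-sided, gave p = 0.1, the smallest that 3 arrays against 3 allow. A leaf excess of signal above 1.11-fold lay outside the 95% interval, which takes no account of the number of probe sets tested. Signal over background is unknown, so the interval sets no bound on the ratio of RNA between the tissues.

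Hydroxypyruvate reductase turns hydroxypyruvate into glycerate in the peroxisome. HPR stood at -0.77, -0.22 and 0.17 log2 in leaf replicates 1, 2 and 3 and at 0.57, -0.17 and 0.31 log2 in the root replicates. The tissues overlapped: leaf replicate 3 lay above root replicate 2, and leaf replicate 1 was the lowest of the 6. Root was above leaf in all 3 replicate pairs, as in 19.5% of all probe sets. The pair differences of -1.35, -0.054 and -0.14 log2 were unequal, with most of the mean from pair 1. The means were -0.28 ± 0.47 log2 in leaf and 0.24 ± 0.37 log2 in root (SD, n = 3 arrays each).

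The HPR difference of -0.51 ± 0.31 log2 (SE), 1.43-fold on the root side, had an unadjusted p of 0.133 and, in limma, an adjusted p of 0.688. Its 95% interval ran from 2.34-fold higher in root to 1.15-fold higher in leaf. It was -0.27 log2 without leaf replicate 1, -0.35 log2 without root replicate 1 and -0.73 log2 without leaf replicate 3. HPR lay above only 8.94% of all probe sets in its difference.

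Glycerate kinase phosphorylates the glycerate that photorespiration returns, and its product enters the Calvin cycle. AT1G80380 stood at -0.14, 0.46 and 0.14 log2 in leaf replicates 1, 2 and 3 and at -0.22, -0.18 and 0.61 log2 in the root replicates. The highest value was a root value, root replicate 3, and leaf was above root in 2 of the 3 replicate pairs. The means were 0.15 ± 0.30 log2 in leaf and 0.070 ± 0.47 log2 in root (SD, n = 3 arrays each). The difference of 0.084 ± 0.29 log2 (SE) was 1.06-fold, with a 95% interval from -0.59 to 0.76 log2 and, in limma, an adjusted p of 0.966. Its sign turned without leaf replicate 2 (-0.070 log2), root replicate 1 (-0.060 log2) or root replicate 2 (-0.043 log2), and it was 0.35 log2 without root replicate 3.

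**Figure D2:**
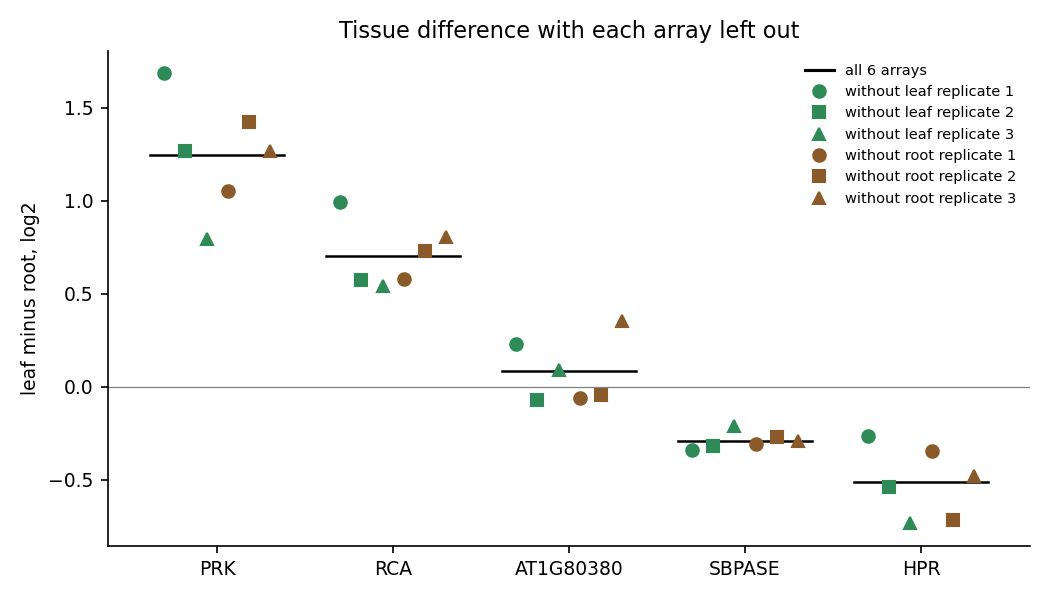
Leaf minus root difference in log2 (vertical axis) of each gene with all 6 arrays (black line) and with each array left out in turn (markers, coloured by tissue and shaped by replicate number). PRK runs from 0.79 to 1.69 log2 and RCA from 0.54 to 0.99 log2, SBPASE and HPR are below 0 in all 6 cases, and AT1G80380 is on both sides of 0.

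Leaf replicate 1 was the lowest leaf array in 4 of the 5 genes, all but SBPASE, and in 32.0% of all probe sets. Averaged over the 5 genes, leaf replicates 1, 2 and 3 stood at -0.20, 0.35 and 0.53 log2. Root replicates 1, 2 and 3 stood at -0.15, -0.063 and 0.15 log2, so leaf replicate 1 was below all root arrays in this average. Among the single genes, only SBPASE and HPR had leaf replicate 1 below all root arrays. For PRK it lay above all root arrays, at 0.012 log2, and for RCA and AT1G80380 it lay between root arrays. The plastid-encoded photosystem genes stood at 1.42 log2 in leaf replicate 1, close to the 1.46 log2 of replicate 3. Of the 5 other matched genes of the Calvin cycle and photorespiration lists given below, 0 had leaf replicate 1 as the lowest leaf array. They averaged 0.12, -0.084 and 0.061 log2 in leaf replicates 1, 2 and 3.

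Whether 1 gene's tissue difference was unlike another's was tested on the difference of their values within each array, for all 10 pairs of genes, by exact two-sided permutation tests. In 5 pairs the leaf and root arrays did not overlap in this quantity. All 5 hold PRK or RCA, and the 10 pairs reuse the same 5 genes, so they are not separate observations. How often pairs of other probe sets separate was not computed. Single probe sets did so in 15.1% of cases, in either direction. The 5 separate pairs gave the smallest possible p of 0.1. After adjustment over the 10 pairs the exact p was 0.2, so 0 pairs passed and none could have passed. The SEs of these pairs come from the spread of the per-array differences alone and not from limma, unlike those of single genes. PRK exceeded HPR by 1.76 ± 0.49 log2 (SE) and SBPASE by 1.54 ± 0.62 log2 in the tissue difference. RCA exceeded HPR by 1.22 ± 0.32 log2, SBPASE by 0.99 ± 0.37 log2 and AT1G80380 by 0.62 ± 0.26 log2. The order of the signal differences was PRK, RCA, AT1G80380, SBPASE, HPR. It does not rank changes in RNA, as how signal scales with Aloe RNA is unknown for each probe set. In that order, the neighbours RCA and AT1G80380 had separate tissues in this way. PRK and AT1G80380, farther apart, overlapped (1.16 ± 0.57 log2, exact permutation p = 0.2). HPR minus AT1G80380 overlapped too (-0.60 ± 0.40 log2, exact permutation p = 0.3). PRK and RCA (0.55 ± 0.33 log2 apart, exact permutation p = 0.3), AT1G80380 and SBPASE (0.37 ± 0.34 log2, in favour of AT1G80380, exact permutation p = 0.3), and SBPASE and HPR (0.22 ± 0.42 log2, exact permutation p = 0.7) overlapped.

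**Figure D3:**
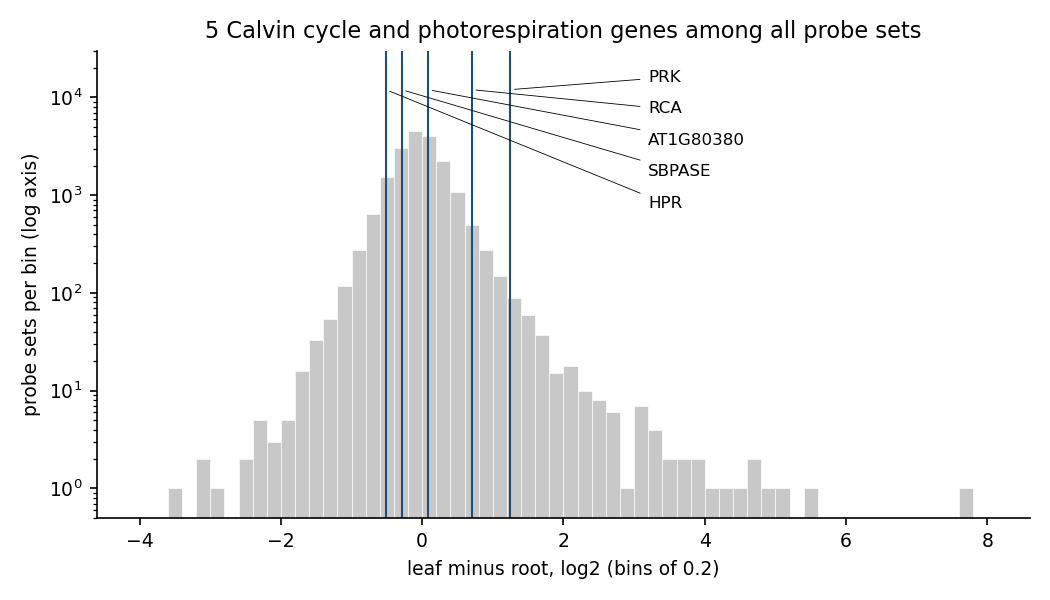
Histogram of the leaf minus root difference in log2 (horizontal axis, bins of 0.2 log2) over the 18810 probe sets tested, with the number of probe sets per bin on a log axis and a vertical line at each of the 5 genes. PRK and RCA lie in the leaf-side tail, above 98.7% and 95.2% of all probe sets, while HPR lies above 8.94%.

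The wider Calvin cycle list held 25 genes, of which 5 were matched by name and 20 were not analysed here. They were PRK, RCA and SBPASE with rbcL and AT1G56190. Their median was 0.70 log2. In limma 0 of the 5 were called, against 0.34% of all probe sets. At an unadjusted p under 0.05 there were 3, all on the leaf side, against 4.88% of all probe sets on that side. PRK and RCA, already counted above, are among the 3, so only rbcL is added. Of the 5 matched genes of the Calvin cycle and photorespiration lists not described above, 1 had such a p. The median of those 5 was -0.057 log2. The plastid gene rbcL, for the large subunit of rubisco, stood at 0.32, 0.19 and 0.30 log2 in leaf replicates 1, 2 and 3 and at -0.28, -0.85 and -0.19 log2 in the root replicates. Its tissues lay 0.39 log2 apart without overlap, a wider gap than in PRK and with a leaf range of 0.13 log2. Such separation on the leaf side occurred in 6.87% of all probe sets. The difference of 0.71 ± 0.23 log2 (SE), or 1.64-fold, had an unadjusted p of 0.0162 and, in limma, an adjusted p of 0.371. AT1G56190, for a chloroplast phosphoglycerate kinase, differed by -0.072 ± 0.37 log2 (SE), with root values from -0.78 to 0.60 log2 on both sides of all leaf values.

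Rubisco is served by both rbcL and RCA, and their differences of 0.71 and 0.70 log2 were of like size with unlike arrays behind them. In leaf replicate 1 rbcL had its highest value, 0.32 log2, and RCA its lowest leaf value. The rbcL value was close to the 0.30 log2 of leaf replicate 3. In root, rbcL was lowest in replicate 2 and RCA in replicate 1.

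The photorespiration list held 32 genes, of which 5 were matched and 27 were not analysed here. In limma 0 of the 5 were called, 0 had an unadjusted p under 0.05, and 0 had tissues without overlap. The shares of all probe sets were 0.34%, 9.56% and 15.1%, in either direction. Their differences ran from -0.51 to 0.084 log2, with a median of -0.057 log2. AT2G35120 and AT1G32470 encode H proteins of glycine decarboxylase, the mitochondrial complex that acts upstream of hydroxypyruvate reductase. They differed by 0.076 ± 0.22 and -0.17 ± 0.24 log2 (SE), with adjusted p-values of 0.957 and 0.900 in limma. AT1G79870, a cytosolic hydroxypyruvate reductase that acts beside HPR in Arabidopsis, differed by -0.057 ± 0.21 log2 (adjusted p = 0.967 in limma), with a 95% interval from -0.54 to 0.43 log2. HPR was therefore the matched gene of this list farthest from 0, and its interval held the values of the other 4.

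**Figure D4:**
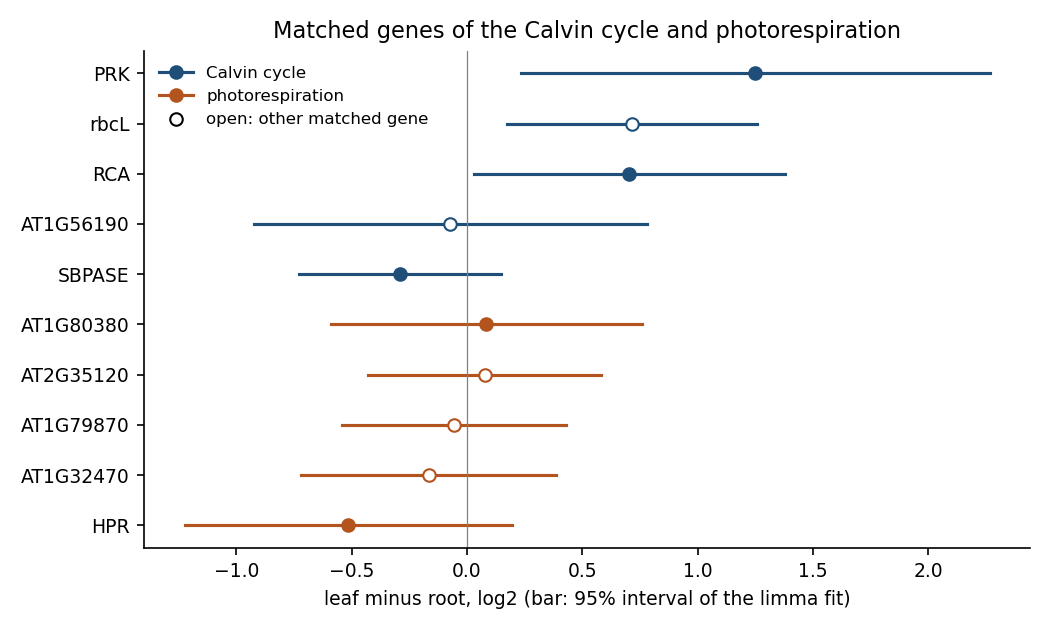
Leaf minus root difference in log2 (horizontal axis) of the 10 matched genes of the Calvin cycle (blue) and photorespiration (orange), with bars for the 95% interval of the limma fit, filled points for the 5 genes described and open points for the others. The intervals of PRK, rbcL and RCA lie above 0 and the other 7 cross it; these intervals are not adjusted for the number of probe sets.

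By the root mean square difference over the 6 RNA arrays, the single-gene probe sets closest to each gene were found among the other 11099. For PRK they were AT4G38700 and AT5G40970, at 0.19 and 0.28 log2, where the median probe set was 0.95 log2 away. For RCA they were BLT and AT5G46940, at 0.13 and 0.14 log2. For SBPASE they were AT3G22530 and AT5G57970, at 0.032 and 0.039 log2, and for HPR AT4G33910 and AT4G29610, at 0.10 and 0.11 log2. AT1G65240 and AT1G12020 were closest to AT1G80380, at 0.052 and 0.11 log2. The median probe set was 0.62 log2 away from RCA, 0.36 from SBPASE, 0.53 from HPR and 0.47 log2 from AT1G80380. The distances therefore do not compare directly between the genes. None of the 10 is a gene of either pathway list, but only 5 genes of each list were matched, so few candidates could have been. With 6 arrays and 11099 candidates such closeness is a description only.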

How the data were processed

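The deposited table holds log2 values of ATH1 probe sets that the authors made with RMA (background correction, quantile normalization and probe summary), per the submitters' processing notes. Its version is not given in the sources used here, and base 2 is taken from what RMA usually writes. Each of the 18874 probe sets had a median within 1e-06 of 0 across the RNA arrays, so each had been centred, a step that no source states. The 64 control probe sets were left out, and the genomic DNA column held 0 values. The probe table gave 1 gene for 11100 of the 18810 remaining probe sets, several for 350 and none for 7360, which stay unnamed. List genes were matched by symbol or locus name; the probe set named TPI was not taken as the plastid enzyme, as its Entrez number lies among those of another chromosome. Gene sequences were not used here.

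Leaf minus root was fitted in R 4.3.3 with lmFit and eBayes of limma 3.58.1, without covariates, with 4 residual and 3.8 prior degrees of freedom, and p-values were adjusted over all 18810 probe sets. Python 3.11.15, pandas 2.3.3, NumPy 2.4.6 and SciPy 1.17.1 gave summaries and exact permutation tests. Precision was limited by the number of arrays (median SE 0.26 log2). No arrays were duplicates (closest pair: median absolute difference 0.302 log2). The fit was tested on simulated data. Named are the 5 genes, of both lists the genes with an unadjusted p under 0.05, rbcL, the photorespiration enzymes next to HPR and AT1G80380, and the 2 closest probe sets per gene; AT1G56190 was added after its value was seen. The genes and lists were chosen with earlier results of these data known.

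Leaf and root share replicate numbers whose meaning the labels do not give. Deviations from the tissue means had Pearson correlations across probe sets of 0.12, 0.37 and 0.25 between same-numbered arrays, all over 0.1. Between arrays of different number they ran from -0.29 to 0.064. Deviations cancel out within each tissue, so positive values for same-numbered arrays force negative ones among the others on balance. That range is thus no separate support. From the same-numbered correlations alone, the numbers were taken to pair the arrays in the replicate block. The SEs, intervals and p-values of single genes above come from the fit without that block, except where it is named. Alternatives were quantile normalization, array centring, array weights, eBayes with trend and robust fitting, the replicate block, 18054 probe sets without a shared-sequence suffix, and each array left out.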

Additional observations from a re-analysis of the deposited data

How the results depend on the processing

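In limma, 0 of the 5 genes were called under any of the 12 alternatives (at an unadjusted p under 0.05 there were 2 genes as reported, and 2, 1 and 0 under 7, 2 and 3 of the alternatives), and the lowest adjusted p was 0.197, for PRK under the replicate block. That block changed no call of the 5 genes or of the Calvin cycle and photorespiration lists, and ended that of psbB among the leaf markers (adjusted p = 0.0508 in limma); over all probe sets it called 53 on the leaf side and 9 on the root side, against 52 and 12. PRK, RCA, SBPASE and HPR kept their side under all 12. With 1 array left out, PRK ranged from 0.79 to 1.69 log2, RCA from 0.54 to 0.99, SBPASE from -0.34 to -0.21, HPR from -0.73 to -0.27, and AT1G80380 from -0.070 to 0.35 log2 with its sign turned in 3 of the 6 fits. The median over the 5 genes, 0.084 log2, ranged from -0.070 without leaf replicate 2 to 0.35 log2 without root replicate 3; it is the value of AT1G80380 in both cases. Over all probe sets, leaving out 1 array gave 7 to 28 calls higher in leaf and 0 to 5 higher in root, on fewer samples, and eBayes with trend and robust fitting gave 115 and 40; the cause was not tested, and this trend rests on centred values. Tests of pairs of genes passed in 0 cases with signs turned within replicate pairs, an alternative chosen after seeing the data that cannot pass. Signal over background is unknown here, so a value near 0 is no sign of equal RNA in leaf and root.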
